A study of Mus musculus with 12 samples.

Results

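GABA-A receptor subunit genes were followed in a ChIP-seq map of H3K9me2, the dimethylation of histone H3 at lysine 9, in mouse prefrontal cortex. The 8 genes are Gabra2, Gabra4, Gabra5 and Gabra6 (alpha subunits), Gabrb1 and Gabrb2 (beta subunits) and Gabrg1 and Gabrg3 (gamma subunits). A region of the deposited tables was taken as one of theirs when it overlapped the gene or, where it overlapped no named gene, when the gene had the closest start. By this rule they held 67 of 33787 regions in the table of FAD against WT and 101 of 43680 in the table of FAD-BIX against FAD. Together these were 127 of 55253 distinct regions, and 8 of 5268 genes with a region.

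The study compared 3 groups of 2 mice each: FAD mice treated with BIX01294 (FAD-BIX), which inhibits the H3K9 methyltransferases EHMT1 and EHMT2, FAD mice, a model of familial Alzheimer's disease, and wild-type mice (WT). All were of the C57BL/6 strain per the labels and 5 to 6 months old, and each mouse gave 1 ChIP and 1 input library, 12 in all. Which transgenes the FAD mice carry, what drives them, the dose and vehicle of BIX01294 and the sex of the mice are not given in the sources used here. The tissue was bulk cortex, so fewer cells of a type and less of the mark per cell cannot be told apart.

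GABA-A receptors are chloride channels built from several subunits around a pore, most often alpha, beta and gamma subunits, and they carry most fast inhibition in the cortex. The alpha subunit largely sets where a receptor sits and which drugs it binds, GABA binds between alpha and beta subunits, and a gamma subunit gives benzodiazepine sensitivity and synaptic placement. H3K9me2 is laid down mainly by EHMT1 and EHMT2 and is known for broad domains of repressed chromatin.

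Before the results, the 2 FAD mice stood apart. At Thy1, a neuronal gene whose promoter often drives transgenes, FAD 2 held 40.3 RPM (reads scaled to the library total) in the first table and the ChIP library labelled FAD 1 held 0.16, against 0.204 and 0.0752 in WT. In the second table the FAD-BIX libraries held 395 and 376 RPM there, beside 590 in FAD 2 and 0.802 in the ChIP library labelled FAD 1. The input of the mouse labelled FAD 1 was low there too, at 0.627 RPM in the first table beside 24.1 in FAD 2, with 0.0842 and 0.692 in WT. In the second table the inputs held 403 and 203 RPM in FAD-BIX, beside 3.97 for the label FAD 1 and 366 for FAD 2. ChIP reads of the library labelled FAD 1 over 4 heart muscle genes with regions, of 15 listed, summed to 60.6 RPM, while FAD 2 held 7.26 and the WT libraries 4.41 and 3.42. FAD 2 called 64.7% of all regions in FAD versus WT and 50.2% in FAD-BIX versus FAD. Values without each of these mice are given below, and their part in the results was not tested further.

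The 8 genes lie in 3 clusters. On chromosome 5, Gabrg1, Gabra2, Gabra4 and Gabrb1 span 1399 kb. Gabra4 and Gabrb1 point away from each other and their annotated bodies overlap at their starts, between 71657921 and 71658308 (GRCm38). On chromosome 7, Gabrg3 and Gabra5 span 875 kb. All 4 regions of Gabra5 in each table carried more than 1 gene in the deposited annotation, so their reads cannot be given to Gabra5 alone. On chromosome 11, Gabra6 and Gabrb2 span 326 kb.

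Most regions lay in introns, and nearly all others lay between genes. In the first table, of 67 regions, 50 were in a gene body, 49 of them in introns, and in the second, of 101, 73 were in a body and 72 in introns. Gabrg3, the longest member at 671 kb, held 29 and 35 regions, all in introns, and these began 103 kb from its start in the first table and 39.6 kb in the second. Gabrb1, at 492 kb, held 11 and 20, all in its body. Gabra2 had 4 of its 6 and 9 of its 13 regions upstream of its start, the farthest at -208 kb. Gabrg1 had 8 of 9 and 11 of 12 outside its body, and Gabra6, 14.6 kb long, had 4 of 4 and 6 of 7 outside.

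Counted per length of gene body, Gabrg3 carried 4.32 and 5.22 regions per 100 kb and Gabrb1 2.44 and 4.27, while all 13962 genes of 10 kb or more carried 0.821 and 1.08 when pooled. Gabrb2 carried 0.469 and 1.88, and Gabrg1 1.09 in both tables. Gabra2 carried 1.45 and 2.91, Gabra4 2.26 and 4.52, and Gabra5 2.73 and 3.27. Gabra6 carried 0 and 6.83, the latter from 1 region. Of those 13962 genes, 83.6% and 81.2% had no region in their body. Every member had regions given to it in both tables, and members were chosen with earlier results known. That choice favours values above the pool, so the comparison is a description.

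**Figure D1:**
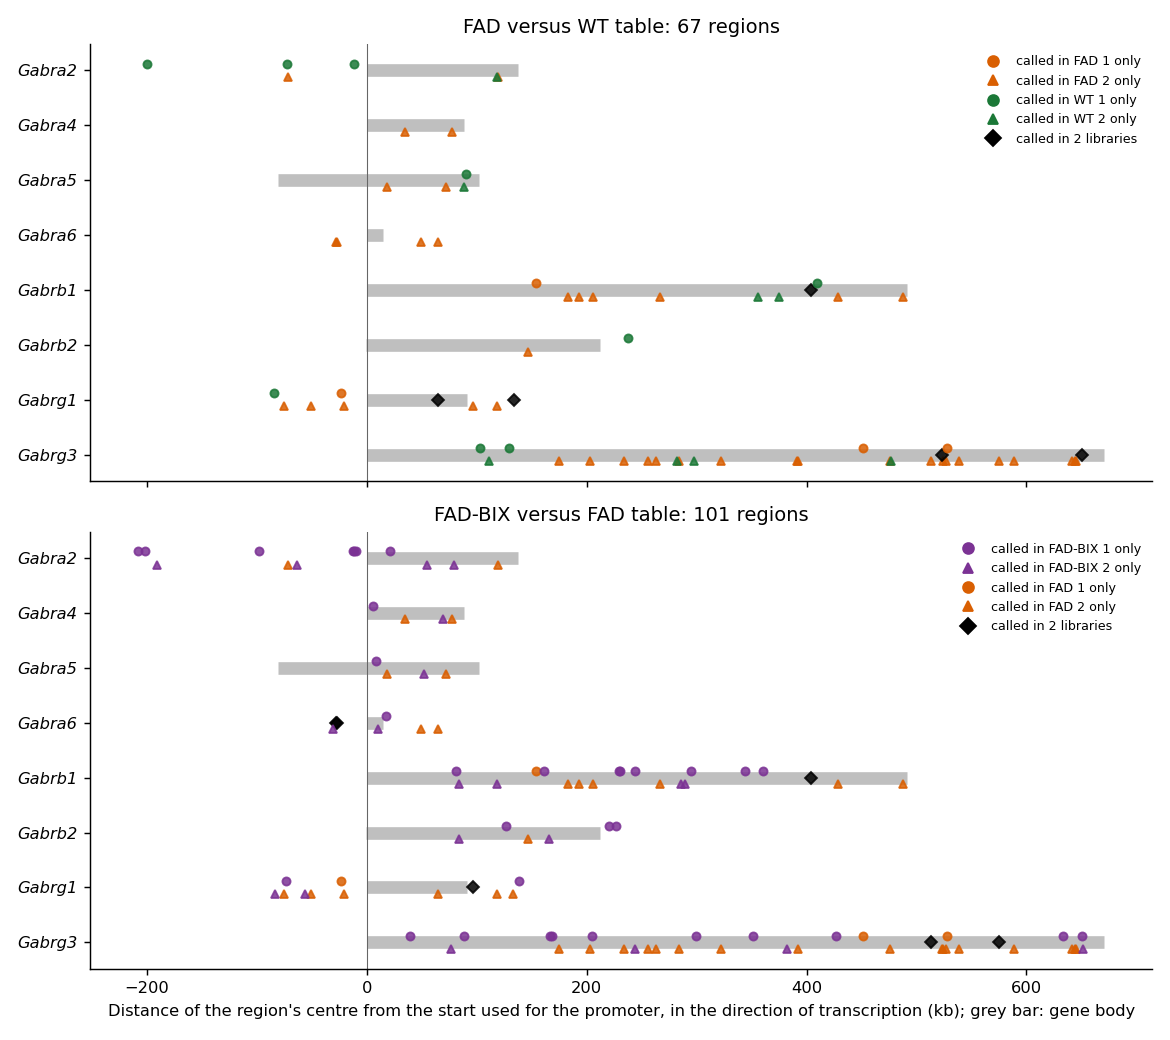
Position of every member region relative to the start of its gene (x axis, kb in the direction of transcription), with gene bodies as grey bars. Symbols give the library that called the region, and diamonds mark regions called in 2 libraries. The 67 regions of the FAD versus WT table and the 101 of the FAD-BIX versus FAD table spread through the bodies of Gabrg3 and Gabrb1 and flank Gabra6 and Gabrg1.

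The promoters of the 8 genes held none of the regions, and how often this holds over all genes was not counted. Windows of 250 bases before to 50 after each RefSeq start (GRCm38.p6) gave 11 windows for the 8 genes, and 0 of them overlapped a region in either table. The nearest regions were 11.5 kb from the window of Gabra2 in the first table and 5.44 kb from that of Gabra4 in the second. The windows of Gabra2 and Gabra4 are shown because their regions came nearest, and that of Gabra6 because it held the fewest CG. Each is written from 5′ to 3′ on the strand of the gene, with the dinucleotide CG in capitals.
Gabra2 promoter window, chr5:71095800-71096099, minus strand: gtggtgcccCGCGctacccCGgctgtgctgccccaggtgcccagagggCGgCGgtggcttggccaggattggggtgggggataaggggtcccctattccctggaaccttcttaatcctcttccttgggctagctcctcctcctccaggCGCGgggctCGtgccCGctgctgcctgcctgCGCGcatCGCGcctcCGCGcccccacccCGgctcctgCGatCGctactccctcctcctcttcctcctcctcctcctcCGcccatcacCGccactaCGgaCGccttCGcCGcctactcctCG
Gabra4 promoter window, chr5:71658259-71658558, minus strand: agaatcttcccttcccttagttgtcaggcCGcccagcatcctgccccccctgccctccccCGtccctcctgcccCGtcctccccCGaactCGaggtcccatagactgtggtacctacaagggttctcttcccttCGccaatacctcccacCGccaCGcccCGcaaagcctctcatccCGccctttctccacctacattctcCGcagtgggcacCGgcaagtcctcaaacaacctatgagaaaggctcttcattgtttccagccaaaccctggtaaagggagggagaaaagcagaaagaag
Gabra6 promoter window, chr11:42321023-42321322, minus strand: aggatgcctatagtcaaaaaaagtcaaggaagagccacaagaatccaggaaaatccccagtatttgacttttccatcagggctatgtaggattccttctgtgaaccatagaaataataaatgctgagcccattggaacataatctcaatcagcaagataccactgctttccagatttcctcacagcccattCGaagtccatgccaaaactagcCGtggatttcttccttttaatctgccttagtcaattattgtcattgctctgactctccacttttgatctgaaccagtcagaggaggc
Gabra2 had 25 CG in its window, Gabra4 12 and Gabra6 2, and the median over 32851 RefSeq promoter windows of the same length was 7. At least 1 CG was in 94.6% of these windows, and 18.4% had at least as many as that of Gabra2. The windows of the other members held 3 CG in Gabrg1, 13 in Gabrg3 and in Gabra5, 9 to 11 in the 3 of Gabrb2, and 25 and 9 in the 2 of Gabrb1.

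Nearly every region had been called in 1 mouse alone: 62 of 67 in the first table and 95 of 101 in the second, or 92.5% and 94.1%, next to 94.9% and 93.4% of all regions. None was called in 3 or 4 libraries. FAD 2 called 45 of the 67 and FAD-BIX 1 called 35 of the 101. The second share, 34.7% of the member regions, stood beside 22.3% of all regions of that table, and the first, 67.2%, beside 64.7%.

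Levels of a region followed the library that had called it, which the choice of regions largely fixes, and which is therefore a description. In the 41 regions called in FAD 2 alone, FAD 2 held 3.14 RPM per kb, the library labelled FAD 1 1.38, and the WT libraries 1.16 and 1.43. FAD 2 was highest in all 41. In the 9 called in WT 1 alone, the libraries labelled FAD 1 and FAD 2 held 1.45 and 1.62, against 2.83 in WT 1 and 1.34 in WT 2. In the 33 called in FAD-BIX 1 alone, FAD-BIX 1 held 2.88 and FAD-BIX 2 1.18, against 1.07 and 1.10 in FAD, and FAD-BIX 1 was highest in 32. In the same 33 regions the input of FAD-BIX 1 held 0.147 RPM per kb and that of FAD-BIX 2 0.632, against 0.526 and 0.470 in FAD.

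**Figure D2:**
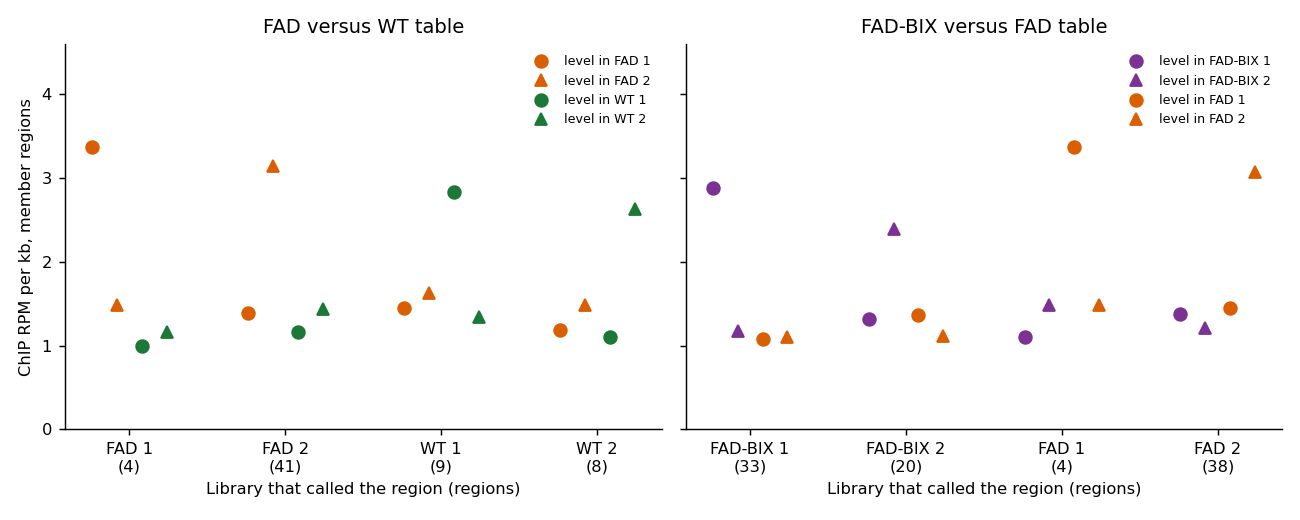
ChIP level (y axis, RPM per kb) of member regions grouped by the 1 library that called them (x axis, number of regions in brackets), in each of the 4 ChIP libraries of a table. The calling library holds 2.39 to 3.38 RPM per kb, and the other 3 libraries 0.993 to 1.62.

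Summed over the 8 genes, reads in the regions were above input in all mice. The regions had been called as ChIP over input, so their choice largely fixes this, and it is a description. In the first table FAD 2 called 45 of the 67 regions, which raises its ratio. The log2 ratio of ChIP to input, both as RPM with 1 read added, was 1.31 and 2.84 in FAD mice, set against 1.41 and 1.25 in WT mice over the regions of the first table. The FAD mean was 2.08 ± 1.08 and the WT mean 1.33 ± 0.11 (SD, n = 2 each), with the library labelled FAD 1 between the WT mice and FAD 2 above them. Over the regions of the table of FAD-BIX against FAD its values were 1.87 and 1.73 in FAD-BIX mice, set against 1.31 and 2.40 in FAD mice, with means of 1.80 ± 0.10 and 1.85 ± 0.77. For all regions of the tables together, the ratio was 1.34 and 2.25 in FAD against 1.09 and 1.00 in WT. In the other table it was 1.24 and 1.69 in FAD-BIX against 1.32 and 2.1 in FAD. The single gene below 0 was Gabrb2 in WT 2, at -0.26, where 22 ChIP reads stood beside 17 input reads.

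FAD was compared with WT to ask how the mark differs in the disease model. In none of the 8 genes did the summed ChIP reads differ by the test, edgeR's quasi-likelihood test with TMM scaling over all genes and Benjamini-Hochberg adjustment at 0.05. Of 3795 genes tested 0 passed, 0% as background, and at an unadjusted p under 0.05 49 genes were higher (1.29%) and 121 lower (3.19%). DESeq2 called 1 gene and limma on ChIP over input 0, none of them a member. Summed levels are given as RPM per kb of region, scaled to library totals, and the log2 folds use TMM, which sets the median of all genes near 0. With library totals in its place that median was 0.61, and it was 0.01 with TMM, and each fold is read against it.

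Among the alpha subunit genes, Gabra2, whose subunit is common at the axon initial segment, held 1.20 and 2.23 RPM per kb in FAD mice, set against 1.92 and 1.55 in WT mice. The FAD mice enclosed the WT mice. Its log2 fold was -0.62 ± 0.27 (SE, with unadjusted p 0.0448 and adjusted p 0.929 in edgeR) and -0.02 with library totals. It was the only member under an unadjusted p of 0.05 in edgeR, beside 3.19% of all genes lower at that p. Of its 6 regions, WT 1 had called 3, WT 2 1 and FAD 2 2, on the same reads that are compared. Among all regions of the table, WT 1 called 17.4%, WT 2 12.2% and FAD 2 64.7%. The choice of its regions thus favours a lower value in FAD. Gabra4, which joins extrasynaptic receptors, held 2.31 and 3.03 in FAD mice, set against 1.29 and 1.64 in WT mice. Both FAD mice were above both WT mice there, as in 33.7% of all genes tested on this scale, while 3.43% had both below. It rests on 2 regions and 18 to 36 reads per library, both regions were called in FAD 2 alone, and its log2 fold was 0.32 ± 0.45.

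Gabra5, known for tonic inhibition in the hippocampus, held 1.07 and 2.18 RPM per kb in FAD mice, set against 1.37 and 1.45 in WT mice. The groups overlapped, and the log2 fold was -0.41 ± 0.32 with TMM and 0.20 with library totals. Gabra6, known for its restriction to cerebellar granule cells, held 1.5 and 3.06 in FAD mice, set against 1.13 and 1.77 in WT mice. These overlapped too, with a log2 fold of 0.03 ± 0.33. Its 4 regions were all called in FAD 2.

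The beta subunit genes showed the same spread of the FAD mice. Gabrb1 held 1.56 and 2.70 RPM per kb in FAD mice, set against 1.42 and 1.75 in WT mice, with a log2 fold of -0.16 ± 0.24. Gabrb2, a partner in the most common cortical receptor, held 1.49 and 2.89 in FAD mice, set against 2.17 and 1.46 in WT mice. The groups overlapped, the log2 fold was -0.34 ± 0.45, and the gene had 21 to 34 reads per library in 2 regions. With library totals the log2 folds of Gabrb1 and Gabrb2 were 0.42 and 0.27.

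Of the gamma subunit genes, Gabrg3 had the most reads and the smallest SE of the 8 genes. Gabrg1 held 1.38 and 2.50 RPM per kb in FAD mice, set against 1.39 and 1.49 in WT mice (log2 fold -0.17 ± 0.24). Gabrg3 held 1.49 and 2.62 in FAD mice, set against 1.42 and 1.57 in WT mice, from 349 to 549 reads per library (log2 fold -0.13 ± 0.22). In both, the library labelled FAD 1 lay within or below the WT mice and FAD 2 above them. With library totals these log2 folds were 0.42 and 0.46, below the median of all genes at that scaling.

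Over the 8 genes, 2 had a positive log2 fold and 6 a negative one, while 50.7% of all genes were positive. The median over the 8 was -0.17, beside 0.01 for all genes. With library totals 7 of 8 were positive, as were 85.7% of all genes, with a median of 0.42 beside 0.61. FAD 2 was the highest library in each of the 8 genes. Without FAD 2 the Gabra2 log2 fold was -0.60 (unadjusted p 0.144 in edgeR), and 0 members and 21 of 4028 genes passed. Without the library labelled FAD 1 it was -0.67 (unadjusted p 0.0878), and 31 of 4257 genes passed, none of them a member. It was -0.48 without WT 1 (unadjusted p 0.175) and -0.80 without WT 2 (unadjusted p 0.0341). With library totals and that library left out, 576 of 4257 genes passed, 563 of them higher, among them Gabrg3 (log2 fold 0.81 ± 0.29, adjusted p 0.0428 in edgeR), where FAD is a single mouse.

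**Figure D3:**
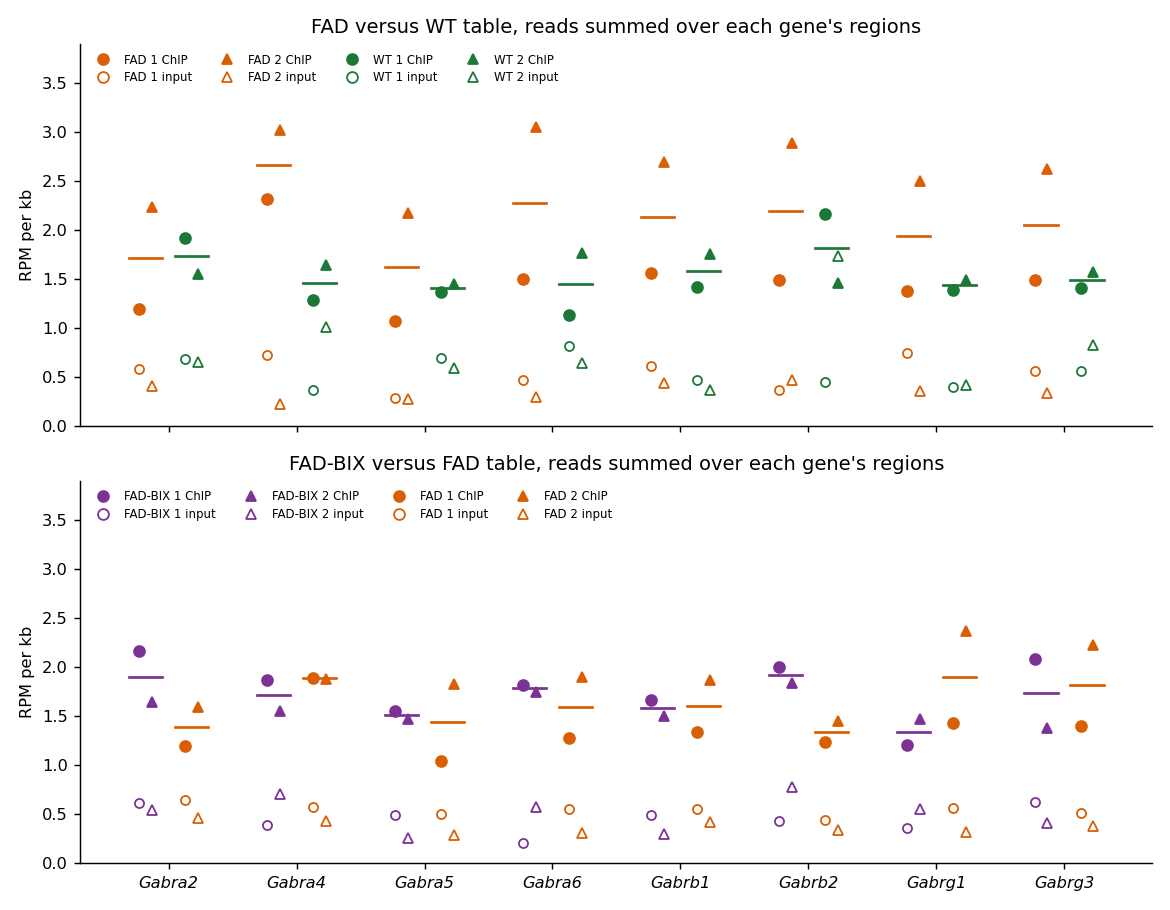
ChIP (filled) and input (open) levels of each gene (y axis, RPM per kb of region) in each mouse, with bars at the mean of the 2 ChIP libraries of a group. In the upper panel FAD 2 is the highest ChIP library for all 8 genes. In the lower panel Gabra2 and Gabrb2 have both FAD-BIX mice above both FAD mice, as in 6.86% of all genes tested. Gabra4 has both below, as in 19.8%.

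FAD-BIX was compared with FAD to ask how the mark differs under the inhibitor. No member passed, and 0 of 4096 genes did (0%), and at an unadjusted p under 0.05 in edgeR's quasi-likelihood test there were 121 higher (2.95%) and 82 lower (2%). DESeq2 and limma on ChIP over input also called 0 genes. Gabra2 and Gabrb2, the members at an unadjusted p under 0.05, were 2 of 8, both higher in FAD-BIX. Most regions of both had been called in FAD-BIX mice on the same reads that are compared, which favours this direction. None of their regions had been called in 2 libraries. With regions called in at least 2 libraries, 4 other members were tested, 2 with positive and 2 with negative log2 folds (median -0.04). The median log2 fold of all genes was close to 0 with TMM and -0.30 with library totals.

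Gabra2 held 2.16 and 1.64 RPM per kb in FAD-BIX mice, set against 1.19 and 1.59 in FAD mice. The groups did not overlap, though FAD-BIX 2 and FAD 2 were close, and this order was seen in 6.86% of all genes, while 19.8% had both FAD-BIX mice below both FAD mice. Its log2 fold was 0.70 ± 0.24 (unadjusted p 0.00923, adjusted p 0.841 in edgeR) and 0.45 ± 0.47 with library totals. Of its 13 regions 11 had been called in a FAD-BIX mouse and 2 in FAD 2. Gabra4 held 1.87 and 1.55 in FAD-BIX mice, set against 1.89 and 1.87 in FAD mice, with FAD-BIX below in both mice by a narrow margin, and its log2 fold was 0.07 ± 0.37 with TMM and -0.14 with library totals.

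Gabra5 held 1.54 and 1.47 RPM per kb in FAD-BIX, between the 1.04 and 1.83 of FAD (log2 fold 0.38 ± 0.36). Gabra6 held 1.82 and 1.75 in FAD-BIX, between 1.28 and 1.90 in FAD (log2 fold 0.44 ± 0.25). In both genes the FAD-BIX mice were close to each other and the FAD mice far apart.

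Gabrb2 held 2.00 and 1.83 RPM per kb in FAD-BIX mice, set against 1.23 and 1.45 in FAD mice. Its groups did not overlap, an order seen in 6.86% of all genes, while 19.8% had both FAD-BIX mice below both FAD mice. Its log2 fold was 0.75 ± 0.32 (unadjusted p 0.0310, adjusted p 0.841 in edgeR) and 0.52 ± 0.57 with library totals. It had 53 to 72 reads per library in 6 regions, of which FAD-BIX mice had called 5. Gabrb1 held 1.66 and 1.5 in FAD-BIX, between 1.34 and 1.87 in FAD, with a log2 fold of 0.24 ± 0.22 with TMM and -0.02 with library totals.

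Gabrg1 was the 1 member with a negative log2 fold under TMM, -0.21 ± 0.23. It held 1.20 and 1.47 RPM per kb in FAD-BIX mice, set against 1.43 and 2.37 in FAD mice, and FAD 2 stood above the other 3 mice. Gabrg3 held 2.08 and 1.38 in FAD-BIX mice, set against 1.40 and 2.22 in FAD mice, with the groups crossed and a log2 fold of 0.22 ± 0.22.

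Over the 8 genes, 7 had positive log2 folds, beside 49.9% of all genes, and the median over the 8 was 0.31. With library totals 4 of 8 were positive, beside 28.3% of all genes. When FAD 2 was left out, 53.8% of all genes were positive. Without FAD 2, 6 of 8 were positive, none was under an unadjusted p of 0.05, and 24 of 4595 genes passed. Without the library labelled FAD 1, Gabra2 and Gabrb2 were the 2 members under that p, at log2 folds of 0.92 (adjusted p 0.218 in edgeR) and 1.07 (adjusted p 0.779), and 18 of 4809 genes passed. Without FAD-BIX 1 none of the 8 was under it, with Gabra2 at 0.48 (unadjusted p 0.145 in edgeR) and Gabrb2 at 0.67 (unadjusted p 0.104). In that setting 5 of 8 were positive, beside 45.9% of all genes, and 12 of 4760 genes passed. Without FAD-BIX 2 both were under it, at 0.88 (unadjusted p 0.00725 in edgeR) and 0.80 (unadjusted p 0.0495), and 13 of 4670 genes passed. With the regions called in FAD 2 alone left out, none of the 8 was under it.

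**Figure D4:**
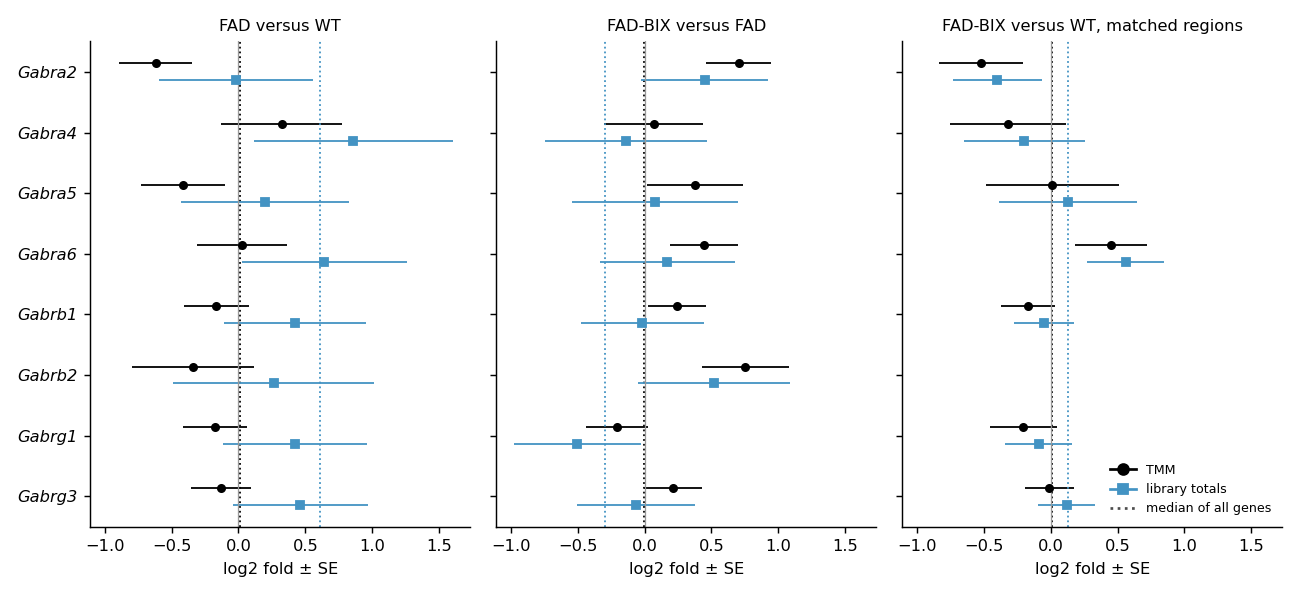
Log2 fold with its SE (x axis) for each gene (y axis) in the 3 comparisons, with TMM (circles) and library totals (squares) as scaling, and dotted lines at the median of all genes under each. FAD versus WT moves to the right with library totals, with the all-gene median at 0.61, and FAD-BIX versus FAD to the left, at -0.30.

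Since FAD-BIX and WT stand in different tables, they were set side by side at the 49 member regions that both tables hold. Of these, 41 had the same coordinates, and over all regions, with or without a gene, there were 24757 such pairs. Of the 49, 39 had been called in FAD libraries alone, or 79.6%, beside 87.8% of all pairs. Widths differed between the tables for Gabra6, Gabrg1 and Gabrg3, and levels are per kb of each table's own regions. No member passed, and 1 of 2626 genes did (0.0381%), which was Thy1. At an unadjusted p under 0.05, 0 members and 3.08% of genes were higher, and 0 members and 2.28% lower. Gabrb2, with 1 shared region, did not pass the filter on low counts.

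Gabra2, with 2 shared regions, held 1.43 and 1.14 RPM per kb in FAD-BIX and 1.57 and 1.80 in WT. Both FAD-BIX mice were below both WT mice, as in 10.6% of genes (24% had both above), and the log2 fold was -0.52 ± 0.31. This gene had a positive log2 fold against FAD over 13 regions, of which these 2 are a part, so the values are not of the same regions. Gabra6 held 1.91 and 1.72 in FAD-BIX mice, set against 1.13 and 1.77 in WT, with a log2 fold of 0.45 ± 0.27 on reads over wider regions in the FAD-BIX table. The groups overlapped per kb. The other 5 members tested lay between -0.32 and 0.01 in log2 fold, Gabra4 at -0.32 ± 0.43, Gabra5 at 0.01 ± 0.50, Gabrb1 at -0.17 ± 0.20, Gabrg1 at -0.20 ± 0.25 and Gabrg3 at -0.01 ± 0.18.

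The 3 clusters were compared by their summed reads as RPM, without a test. On chromosome 5 the sums were 16.5 and 28.9 RPM in FAD mice, set against 17.0 and 18.3 in WT mice. On chromosome 7 they were 16.6 and 29.6 in FAD mice, set against 16.3 and 17.9 in WT mice, and on chromosome 11, with 6 regions, 2.85 and 5.72 in FAD mice, set against 2.74 and 3.20 in WT mice. The log2 ratios of the group means were 0.36, 0.43 and 0.53 in that order, and -0.23, -0.16 and -0.09 with TMM, and in each cluster FAD 2 was the highest mouse. Without FAD 2 the ratios of RPM were -0.10, -0.04 and -0.06.

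In the second table the chromosome 11 cluster stood at 9.00 and 8.50 RPM in FAD-BIX mice, set against 6.01 and 8.27 in FAD mice. The groups did not overlap, though FAD-BIX 2 and FAD 2 were close, and 6.86% of all single genes had this order. Of the 13 regions of this cluster, FAD-BIX 1 and FAD-BIX 2 called 6 and 4, and the libraries labelled FAD 1 and FAD 2 called 0 and 5. The choice of regions thus favours this order. The chromosome 5 cluster stood at 30.6 and 27.9 in FAD-BIX, between 24.7 and 35.1 in FAD, and that of chromosome 7 at 28.6 and 19.5 in FAD-BIX, between 19.2 and 30.7 in FAD. The log2 ratios were 0.29 on chromosome 11, -0.03 on chromosome 5 and -0.05 on chromosome 7, and 0.55, 0.23 and 0.23 with TMM.

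As ChIP over input, the log2 ratio on chromosome 5 was 1.13 and 2.68 in FAD mice, set against 1.63 and 1.74 in WT mice. On chromosome 7 it was 1.44 and 2.95 in FAD mice, set against 1.27 and 0.95 in WT mice, and on chromosome 11 it was 1.67 and 2.98 in FAD mice, set against 1.00 and 0.77 in WT mice. Both FAD mice were above both WT mice on chromosomes 7 and 11, and enclosed them on chromosome 5. In ChIP reads alone, the library labelled FAD 1 lay between the WT mice on chromosomes 7 and 11, at 16.6 and 2.85 RPM. The share of all genes with both FAD mice above in this ratio was not counted. All regions of the table together also had both FAD mice above both WT mice, at 1.34 and 2.25 in FAD mice, set against 1.09 and 1.00 in WT mice. The inputs differed as well. On chromosome 7 they held 0.526 and 0.328 RPM per kb in FAD mice, set against 0.581 and 0.801 in WT mice. On chromosome 11 they held 0.439 and 0.348 RPM per kb in FAD mice, set against 0.708 and 0.971 in WT mice, from 10 to 32 reads. Over the regions of the second table, which are not the same regions, the ratio on chromosome 5 was 1.81 and 1.74 in FAD-BIX, between 1.22 and 2.25 in FAD. On chromosome 7 it was 1.74 and 1.82 in FAD-BIX, between 1.41 and 2.55 in FAD. On chromosome 11 it was 2.66 and 1.44 in FAD-BIX mice, set against 1.27 and 2.39 in FAD mice.

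**Figure D5:**
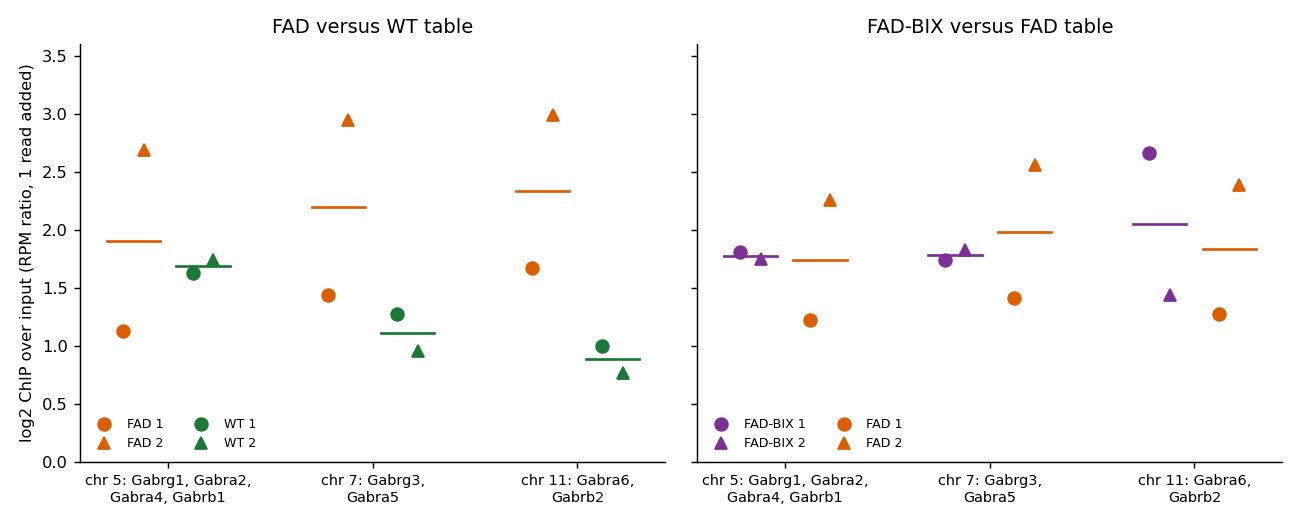
Log2 ratio of ChIP to input (y axis, RPM with 1 read added) for the summed regions of each chromosome's cluster, per mouse, with bars at group means. FAD 2 is the highest mouse of its table on chromosomes 5, 7 and 11 in FAD versus WT, at 2.68, 2.95 and 2.98, and WT lies lowest on chromosome 11, at 1.00 and 0.77.

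Single regions were tested across the whole of each table, and none passed. In FAD versus WT, 0 of 27778 regions passed in edgeR (0%) and in DESeq2, and at an unadjusted p under 0.05 there were 255 higher (0.918%) and 1381 lower (4.97%). Of the 67 member regions 59 were tested, and 1 was higher and 4 lower at that p, or 1.69% and 6.78%. The higher one was in intron 3 of Gabrg3, 393 kb from its start (chromosome 7, 56994405 to 56994739), with 19 and 24 ChIP reads in FAD mice, set against 2 and 6 in WT mice (log2 fold 2.02 ± 0.74, adjusted p 0.832 in edgeR). This region had been called in FAD 2 alone. Both FAD mice were above both WT mice, and the share of all regions with that order was not counted. The input of the library labelled FAD 1 held 9 reads there and that of FAD 2 held 0, next to 3 and 2 in WT.

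The lowest p of the first table's member regions was in intron 4 of Gabrb1 (chromosome 5, 72013803 to 72014268), with 10 and 6 ChIP reads in FAD mice, set against 17 and 32 in WT mice (log2 fold -1.93 ± 0.62, adjusted p 0.832 in edgeR). It had been called in WT 2 alone. In intron 8 of Gabra2 (chromosome 5, 70975996 to 70976455) there were 9 and 27 ChIP reads in FAD mice, set against 29 and 32 in WT mice (log2 fold -1.25 ± 0.47), and the low value was that of the library labelled FAD 1. Gabrg3 had the other 2 lower ones, both in introns, at 477 and 651 kb from its start, with log2 folds of -1.57 ± 0.59 and -1.24 ± 0.46. The second of these had been called in both WT mice, and held 19 and 24 ChIP reads in FAD mice, set against 43 and 33 in WT mice.

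In the other members the region of smallest p had log2 folds of -1.30 ± 0.64 in Gabra5 (7 and 14 ChIP reads in FAD, 26 and 11 in WT), -0.96 ± 0.47 in Gabrg1 (22 and 25 in FAD, 24 and 47 in WT), -0.51 ± 0.67 in Gabrb2, -0.31 ± 0.52 in Gabra6 and 0.50 ± 0.80 in Gabra4. These were between 7 and 47 reads, or 3 and 17 reads for Gabra4.

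In FAD-BIX versus FAD, 0 of 31055 regions passed in edgeR (0%) and in DESeq2, and at an unadjusted p under 0.05 there were 1221 higher (3.93%) and 365 lower (1.18%). Of the 101 member regions 77 were tested, and 8 were higher (10.4%) and 0 lower at that p. All 8 had been called in a FAD-BIX mouse alone, 6 in FAD-BIX 1 and 2 in FAD-BIX 2 on the same reads that are compared here. Regions of 1 gene are not independent of each other. With library totals the count was 2 of 77 (2.60%, beside 0.441% of all regions), without FAD 2 it was 1 of 94 (1.06% beside 0.511%), without the library labelled FAD 1 it was 10 of 98 (10.2% beside 4.21%), and without the regions called in FAD 2 alone it was 0 of 46, with 1 lower. Without FAD-BIX 1 there were 4 higher and 3 lower of 88, or 4.55% higher beside 4.40% of all regions. Without FAD-BIX 2 there were 13 higher and 0 lower of 95, or 13.7% beside 5.06%.

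Gabra2 and Gabrg3 had 3 each of the 8. The smallest p was in intron 3 of Gabrg3, 88.8 kb from its start (chromosome 7, 57298225 to 57298547), with 24 and 10 ChIP reads in FAD-BIX mice, set against 2 and 2 in FAD mice (log2 fold 3.42 ± 1.03, unadjusted p 0.00340, adjusted p 0.897 in edgeR). This region had been called in FAD-BIX 1 alone, so high reads in that library were a condition of its listing. Both FAD-BIX mice were above both FAD mice, and the share of all regions with that order was not counted. In intron 2 of the same gene (57347247 to 57347899) the excess lay in FAD-BIX 1, with 42 and 14 ChIP reads in FAD-BIX mice, set against 10 and 11 in FAD mice (log2 fold 1.82 ± 0.60). The 3 of Gabra2 were at -63.5 and -10.002 kb from its start, upstream, and in intron 3. The first (chromosome 5, 71158967 to 71159724) held 29 and 34 ChIP reads in FAD-BIX mice, set against 16 and 17 in FAD mice (log2 fold 1.33 ± 0.48). The second (71105704 to 71105998) had 18 and 12 reads in FAD-BIX mice, set against 3 and 3 in FAD mice (log2 fold 2.68 ± 1.05). It was also the one member region under 0.05 in the authors' deposited table, with a p-value of 0.0417 and a q-value of 1. In the authors' deposited table of FAD-BIX and FAD that was 1 of 101 (0.990%), beside 2.09% of all regions, and in their deposited table of FAD and WT it was 0 of 67, beside 2.67%.

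Downstream of Gabra6 (chromosome 11, 42303557 to 42304234), 17.2 kb from its start, there were 30 and 16 ChIP reads in FAD-BIX mice, set against 8 and 8 in FAD mice (log2 fold 1.92 ± 0.62, unadjusted p 0.00586). The inputs held 0 and 9 reads in FAD-BIX mice, set against 11 and 6 in FAD mice. In intron 4 of Gabrb1 (chromosome 5, 72018431 to 72018877) there were 20 and 14 in FAD-BIX mice, set against 9 and 5 in FAD mice (log2 fold 1.63 ± 0.73). For Gabrb2 the smallest p was 226 kb from its start, downstream, with 14 and 10 ChIP reads in FAD-BIX mice, set against 3 and 1 in FAD mice (log2 fold 2.85 ± 1.40). Gabrg1 stood at 0.86 ± 0.53, Gabra5 at 0.80 ± 0.71 and Gabra4 at -0.88 ± 0.67, with 12 and 5 ChIP reads in FAD-BIX mice, set against 22 and 19 in FAD mice in the last.

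The rest of the GABA system had few regions. Of 11 other GABA-A subunit genes, 4 were tested in FAD versus WT, with 1 positive and 3 negative log2 folds and a median of -0.28. The positive one was Gabrr3 (0.71 ± 0.91), a rho subunit gene. In FAD-BIX versus FAD 5 were tested, with 1 positive and 4 negative and a median of -0.06. The smallest p among the negative ones was that of Gabrr3 (-1.06 ± 0.79, with 6 and 7 ChIP reads in FAD-BIX mice, set against 16 and 19 in FAD mice). At matched regions 3 were tested, with 2 positive and 1 negative.

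Of 26 other genes for GABA synthesis, transport, GABA-B receptors and receptor anchoring, 5, 6 and 2 were tested in the same 3 comparisons. In FAD versus WT the smallest p in each direction was Gad2, a GABA-synthesizing enzyme (0.96 ± 0.66, with 15 and 21 ChIP reads in FAD mice, set against 7 and 7 in WT mice), and Plcl1 (-0.65 ± 0.55). In FAD-BIX versus FAD it was Plcl1 (0.30 ± 0.43) and Slc6a11, a GABA transporter (-0.62 ± 0.50). At matched regions it was Gphn, the anchoring protein gephyrin (0.09 ± 0.25), and no gene was negative. None of these genes was under an unadjusted p of 0.05 in edgeR in any of the 3.

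Other genes shared the pattern of the summed members over the 4 ChIP libraries of a table. Likeness was the Euclidean distance between log2 CPM, centred on their mean, among the 647 other genes with at least 5 regions in the first table and the 832 in the second. In the first table the nearest were Hao1 (distance 0.0191), Dok6 (0.0483) and Pcdh17 (0.0680), beside a median of 0.409. Hao1 held 93 and 139 ChIP reads in FAD mice, set against 91 and 107 in WT mice. In the second table they were Map9 (0.0305), Fzd1 (0.0364) and Tmtc4 (0.0505), beside a median of 0.474. With 4 points that share their libraries and depth, this is a description.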

How the data were processed

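H3K9me2 ChIP and input libraries of 6 mice were used as 2 deposited comparison tables. Per the labels' protocols, tissue punches were fixed for 12 min in 1% formaldehyde, and libraries gave 50 bp single-end or 150 bp paired-end reads. Per the submitters' processing notes, the tools were BWA 0.7.12, MACS2 2.1.0, Trimmomatic and FastQC, and the build was mm9. In the files, 99.7% of 3517 and 4010 genes matched by symbol overlapped their RefSeq position in GRCm38.p6, so coordinates are given as GRCm38. The sources used here do not say whether counting starts at 0 or 1.

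Per the file headers, the deposited counts are reads per region and library, and the authors' RPM divide reads by library size. In the files, these RPM followed reads plus 1, not the reads alone. The deposited log2 fold changes, p-values and q-values are the authors' own comparisons of regions. The 8 deposited fold enrichment columns were not used. Regions were called in each library and joined, so the reads compared also chose the regions.

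Rows were reduced to 1 per region and counts summed per gene and library. RPM were recomputed from the counts and the library totals, which follow from the deposited RPM. ChIP libraries had 20.45 to 26.58 M reads in all and inputs 13.92 to 23.76 M, with a median of 11 to 20 ChIP reads per region. Exact Poisson 95% intervals were 10.7 to 28.4 for the smallest gene sum of 18 reads and 504 to 597 for one of 549, and cover counting error only. ChIP counts of all genes or regions went into edgeR 4.0.16 under R 4.3.3 (quasi-likelihood test, TMM, default filter on low counts, Benjamini-Hochberg, threshold 0.05), without a replicate block. The SE uses spread shared across features. Labels name separate mice, so p-values measure the spread between 2 mice a group. FAD-BIX and WT regions were paired at 50% reciprocal overlap. Alternatives were DESeq2 1.42.0, its size factors, library totals, no filter, a replicate block, leaving out each ChIP library, limma 3.58.1 on ChIP over input, and other choices of regions. Steps were tested on simulated data.

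The members and lists were chosen with earlier results of these data known. Named were all 8 members, for each its region with the smallest p in each table, for each further list the gene with the smallest p in each direction (some of these are not reported here), and the 3 genes nearest to the summed members. Other regions under an unadjusted p of 0.05 were named after their values were seen. Promoter sequences are RefSeq's (GRCm38.p6), and all 8 genes matched by symbol.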

Additional observations from a re-analysis of the deposited data

How the results depend on the processing

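No member was called in any comparison under the alternatives run, except Gabrg3 in FAD versus WT without the library labelled FAD 1 and with library totals, a setting chosen after seeing the data. Of the values for single members and their named regions, 439 kept their direction and side of the threshold and 55 turned direction, and the cause was not tested. Each mouse left out leaves 1 mouse in its group, which is then assumed to vary like the other group. Gene sums rest on 18 to 585 ChIP reads per library, and 2 mice a group limit every test.

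Counts of called genes moved by more than 1.5 times as follows. In FAD versus WT, where 0 genes were called, DESeq2 called 1, library totals 2, and leaving out regions called in FAD 2 alone 13. In FAD-BIX versus FAD, also at 0, library totals called 3, no filter on low counts 12, and leaving out regions called in FAD 2 alone 6. In FAD-BIX versus WT at matched regions, where 1 was called, DESeq2 called 2, its size factors 3, no filter 3, limma on ChIP over input 0, regions called in at least 2 libraries 9, leaving out regions called in FAD 2 alone 2, regions overlapping the gene only 0, and pairing at 1 base of overlap 4. For single regions of FAD versus WT, at 0, library totals called 2, regions called in at least 2 libraries 7, and leaving out those called in FAD 2 alone 8. For those of FAD-BIX versus FAD, at 0, these were 4 with library totals, 17 with no filter and 7 without those called in FAD 2 alone. With each mouse left out in turn, called genes were 0 to 31 in FAD versus WT, 12 to 24 in FAD-BIX versus FAD and 0 to 11 in FAD-BIX versus WT, and called regions were 0 to 119 and 12 to 26. Without the library labelled FAD 1 and with library totals, 576 genes including 1 member and 12 regions were called in FAD versus WT, and 101 genes and 17 regions in FAD-BIX versus FAD. The clusters of FAD versus WT on chromosomes 5, 7 and 11 stood at -0.23, -0.16 and -0.09 with TMM, against 0.36, 0.43 and 0.53 with library totals, so that all 3 turned direction.

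With the replicate number as a replicate block, 2 genes were called in FAD versus WT and 2 in FAD-BIX versus FAD, none of them a member, and no other call changed. Differences between the 2 mice of a group correlated with those of the other group at 0.061, -0.045 and 0.030 in the 3 comparisons, across 3795, 4096 and 2626 genes. With 2 mice a group and low counts, these values cannot decide whether the numbers pair the mice.

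Log2 folds of FAD versus WT that turned direction were, with library totals, 0.20 (Gabra5), 0.42 (Gabrb1), 0.27 (Gabrb2), 0.42 (Gabrg1) and 0.46 (Gabrg3). With limma on ChIP over input they were 0.35 (Gabra2), 1.17 (Gabra5), 0.051 (Gabrb1), 1.08 (Gabrb2), 0.029 (Gabrg1) and 1.05 (Gabrg3). Without regions called in FAD 2 alone they were 0.13 (Gabrb1) and 0.17 (Gabrb2). Without the library labelled FAD 1 and with library totals they were 0.37 (Gabra2), 0.63 (Gabra5), 0.77 (Gabrb1), 0.67 (Gabrb2), 0.79 (Gabrg1) and 0.81 (Gabrg3). With each mouse left out, Gabra6 ranged between -0.28 and 1.07 over both scalings, and was -0.03 without FAD 2.

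In FAD-BIX versus FAD the turned values were, with library totals, -0.14 (Gabra4), -0.018 (Gabrb1) and -0.065 (Gabrg3). With limma they were -0.22 (Gabra4), -0.026 (Gabrb2) and -0.24 (Gabrg3), and with regions called in at least 2 libraries -0.71 (Gabrb1). Without the library labelled FAD 1 and with library totals they were -0.13 (Gabra4), -0.28 (Gabra5), -0.090 (Gabra6), -0.24 (Gabrb1) and -0.36 (Gabrg3). With each mouse left out, Gabra4 ranged between -0.33 and 0.53, with -0.09 without FAD-BIX 1, and Gabrg3 between -0.36 and 0.47 over both scalings, with -0.12 without FAD-BIX 1.

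In FAD-BIX versus WT, Gabrg3 turned to 0.12 with library totals, 0.42 with limma and 0.11 with pairing at 80% overlap, where Gabra6 was -0.22. With each mouse left out, Gabra5 ranged between -0.23 and 0.24, Gabrg1 between -0.62 and 0.094 and Gabrg3 between -0.19 and 0.12.

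Of the named regions of FAD versus WT, that of Gabrb2 turned to 0.11 with library totals, 1.70 with limma, 0.12 without regions called in FAD 2 alone, and 0.41 without the library labelled FAD 1 and with library totals. That of Gabra6 turned to 0.31 with library totals and that of Gabra5 to 0.37 with limma. Without the library labelled FAD 1 and with library totals, those of Gabra2 and Gabra6 were 0.12 and 0.68. With each mouse left out, that of Gabra4 ranged between -0.11 and 1.61 and that of Gabrb2 between -1.22 and 0.68.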
